A study of Mus musculus and unidentified plasmid with 60 samples.

Results

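Widened regions were stretches of the genome called as enriched for a dominant-negative RFX protein whose called width was larger, past a threshold, in neurons depolarized for 1 h than in silenced neurons at 0 h. They were chosen from lists of ChIP-seq regions, in which each region carries the centre found in either of 2 replicate columns, c1 and c2. A widened region had a 1 h width of at least 250 bases, centres in both columns at both times, exactly 1 overlapping region in the 0 h list, and a 1 h width of at least 1.5 times the 0 h width. The rule gave 294 of the 122135 regions of the 1 h list. Their widths are therefore what chose them, and neither the widths nor the positions of the edges were tested.

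All groups were primary cortical cultures from CD-1 mouse embryos at E16, kept to day in vitro (DIV) 7. The depolarized group (1 h) and the silenced group (0 h) both received the RFX dominant negative by lentivirus on DIV 2 and were quieted overnight from DIV 6 with tetrodotoxin and DL-2-amino-5-phosphonopentanoic acid. They differ in the time spent in 55 mM KCl on DIV 7, a treatment that mimics strong neuronal activity, and the construct was pulled down through its MYC tag. For a further group, titled WT, the labels name no treatment and leave unclear whether the neurons held the construct. Each group had 2 libraries and gave 1 combined list. Neither the promoter of the construct, nor the share of neurons transduced, nor whether the 2 libraries came from separate cultures is stated in the labels. Region lists hold no expression values, so the labelled cell type could not be checked against markers.

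RFX proteins are winged-helix transcription factors that bind the X-box, a palindrome-like DNA element, as dimers. They are known for switching on genes of cilia and of MHC class II antigen presentation. A dominant-negative form interferes with the native proteins. The width of a ChIP-seq region depends, among other things, on fragment length, on the threshold of the peak caller and on whether neighbouring peaks are joined. It measures the extent of DNA called as enriched and is no count of bound molecules. Width could not be separated here from signal strength or read depth, which the lists do not hold.

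The depth of the libraries is unknown, since the lists hold neither read counts nor scores. The 1 h list held 122135 regions, of which 66910 had centres in both columns, and the 0 h list held 173231, of which 105643 had both. A combined region has 1 width and no replicate error. Positions are given in mm9 as listed, with starts and ends in steps of 10 bases for every widened region. No mm9 genome or annotation was used here, so the regions carry no gene names and no sequences.

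Regions that passed the mirrored rule were more numerous than the widened ones. The 294 regions made up 0.675% of the 43579 pairs that met the rule in all but the width ratio. With the 2 lists exchanged, so that a 0 h region of at least 250 bases was at least 1.5 times as wide as its single 1 h counterpart, 4978 of 53059 pairs qualified, or 9.38%. Narrowed regions thus outnumbered widened ones 16.9 times. With ratios taken relative to the median of all pairs (0.931), there were 3910 narrowed regions and 357 widened ones, a smaller excess. With column c2 of 1 h ignored there were 7689 narrowed regions and 356 widened ones, so the number of narrowed regions depended on that column. At 1 h column c2 held 74386 centres against 114659 in c1, and at 0 h 122913 against 155961. Ignoring a column admits more pairs, and no share of that larger pool is given here. Among the 43285 pairs not widened, the 1 h region was wider in 9063, equal in 6357 and narrower in 27865, and the median ratio of 1 h to 0 h width was 0.967.

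The widened regions had a median width of 575 bases at 1 h, with quartiles of 380 and 690 and a range of 250 to 1500 bases. At 0 h their median width was 280 bases, with quartiles of 200 and 340 and a range of 40 to 1000 bases. The gain ran from 90 to 740 bases with a median of 270, and the ratio from 1.5 to 6.25 with a median of 1.93. For the pairs not widened the medians were 330 bases at 1 h against 340 bases at 0 h. Among all regions of a list, eligible or not, the median widened region stood at the 97.3 percentile of widths at 1 h, against the 72.2 percentile at 0 h. The rule selects on these widths, so the rise is a description only.

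**Figure D1:**
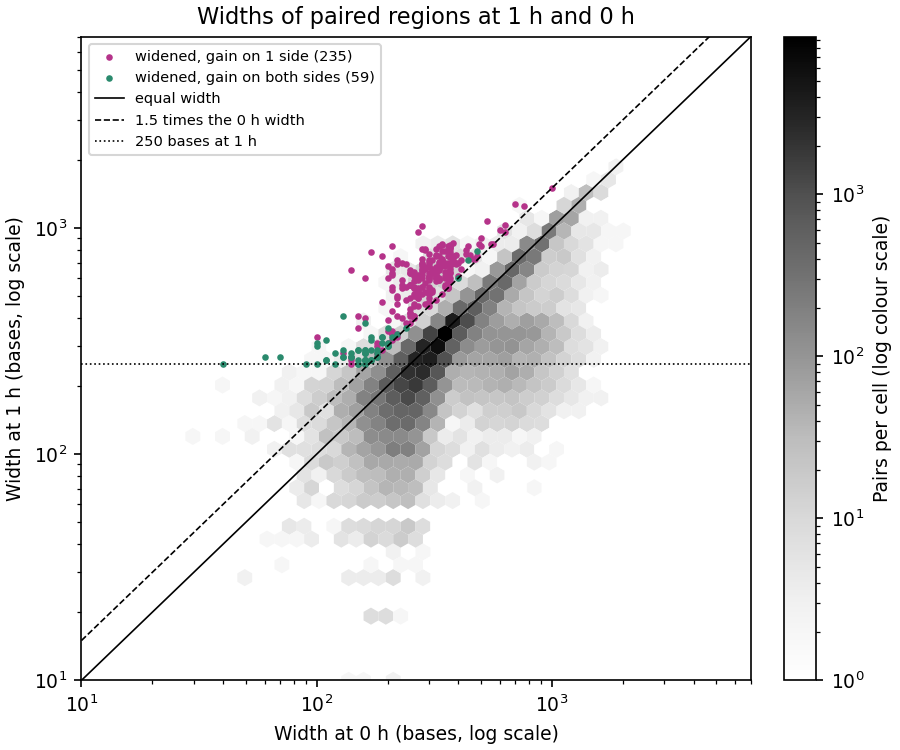
Width at 1 h against width at 0 h, both in bases on log scales, for the 64531 pairs with centres in both columns and a single 0 h counterpart (grey, pairs per cell) and for the 294 widened regions (points, by whether the gain lay on 1 side or on both). The dashed line marks the ratio of 1.5 and the dotted line the minimum of 250 bases; the widened regions form a cloud near 300 bases at 0 h and 620 bases at 1 h and a string of narrower ones along the dotted line, while a larger grey cloud of narrowed pairs lies below the line of equal width.

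The threshold of 1.5 cut through a continuous range. A ratio of exactly 1.5 was held by 14 widened regions. The first of these in order of position measured 270, 510 and 300 bases at 1 h against 180, 340 and 200 bases at 0 h, on chromosomes 1 (39992700 to 39992970 at 1 h), 2 (83679030 to 83679540) and 3 (58273160 to 58273460). Just outside lay a region on chromosome 1 (43155270 to 43156090) with 820 bases at 1 h against 550 at 0 h, a ratio of 1.49. The next ones out were on chromosome 13 (108337010 to 108337620), with 610 bases at 1 h against 410 at 0 h, and on chromosome 15 (5094070 to 5094560), with 490 bases at 1 h against 330 at 0 h. A gain of at least 200 bases was made by 205 widened regions and by 23 of the 43285 pairs not widened. The rule itself largely sets this contrast, since below a ratio of 1.5 only pairs already wide at 0 h can gain that much.

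Most regions widened at a single edge. In 235 of the 294 (79.9%, 95% exact Clopper-Pearson interval 74.9% to 84.4%, counting error only) at least 80% of the net gain lay on 1 side. The left edge moved in 125 of these and the right edge in 110, left being the lower coordinate. The moving edge went outward by a median of 320 bases (quartiles 240 and 400), while the other edge moved inward by a median of 10 bases (quartiles 25 bases inward and 0) and stayed within 20 bases of its 0 h place in 165 of the 235. In the other 59 widened regions both edges moved outward, by a median of 80 bases at one edge and 50 bases at the other. Of the narrowed regions, 2328 of 4978 lost at least 80% of the bases on 1 side (46.8%, interval 45.4% to 48.2%).

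**Figure D2:**
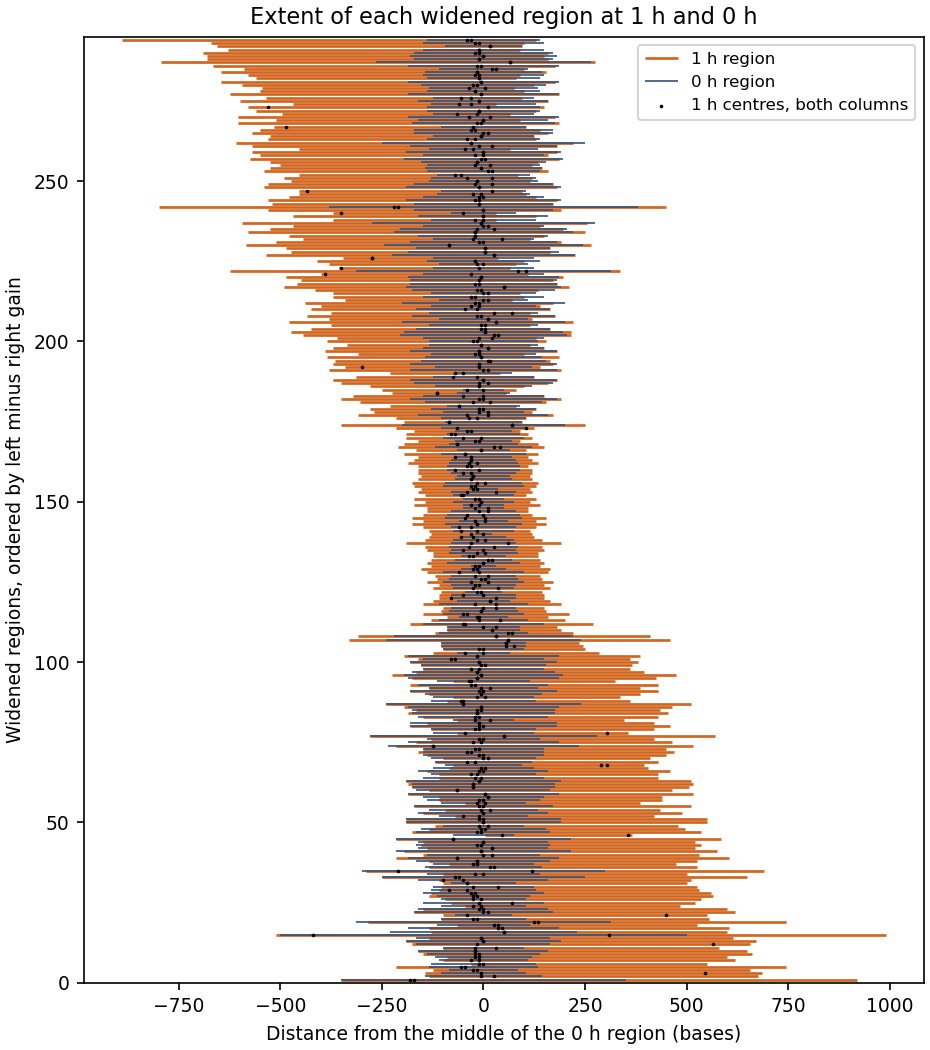
Extent of each of the 294 widened regions at 1 h (orange) and 0 h (blue), aligned on the middle of the 0 h region, with the 1 h centres of both columns as black points. Regions are ordered by left minus right gain: those extended to the right are at the bottom, those extended to the left at the top and those extended at both edges between them, and nearly all centres stay within the blue span.

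**Figure D3:**
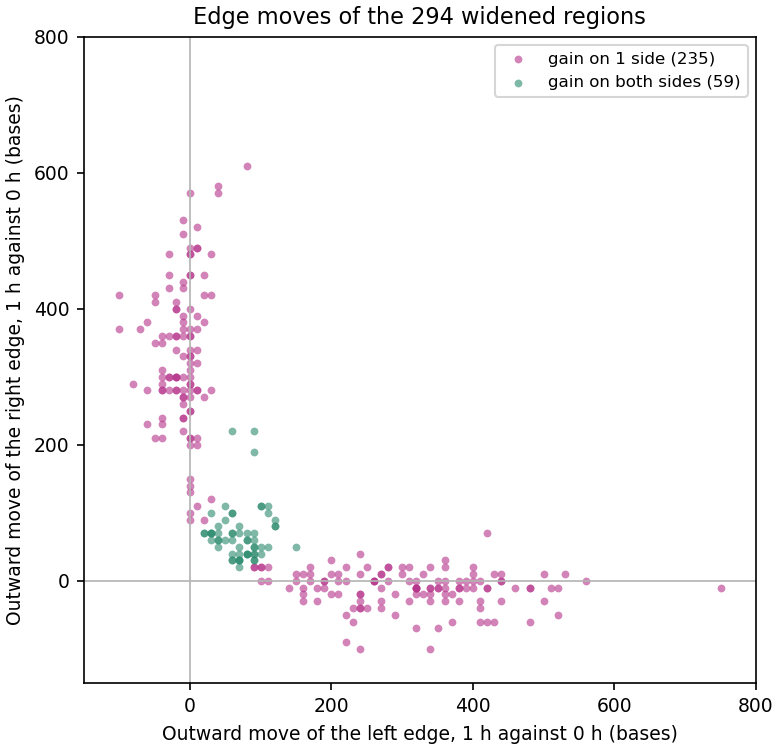
Outward move of the right edge against that of the left edge, in bases, for each of the 294 widened regions (negative values are moves inward). The 235 regions with the gain on 1 side lie along the axes out to 750 bases, and the 59 with the gain on both sides form a cluster mostly below 110 bases on either axis.

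Regions of these 2 kinds were of different sizes. Those widened on 1 side had median widths of 620 bases at 1 h against 300 bases at 0 h and gained a median of 310 bases. Those widened on both sides had median widths of 280 bases at 1 h against 160 bases at 0 h and gained a median of 130 bases. The width of all 64531 paired regions fell steeply above 400 bases in both lists, with 10098 regions of 350 to under 400 bases and 1729 of 400 to under 450 at 1 h, and 12025 and 2266 at 0 h. The widened regions at 1 h had a trough of 9 regions at 350 to under 400 bases and a second peak of 38 regions at 600 to under 650 bases.

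**Figure D4:**
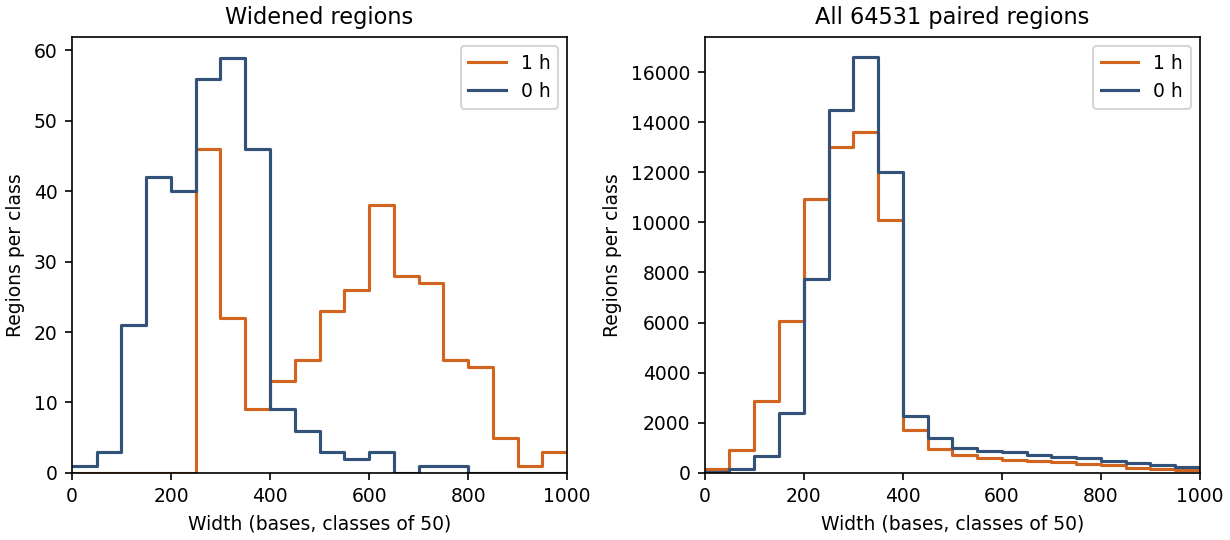
Number of regions per width class of 50 bases at 1 h (orange) and 0 h (blue), for the widened regions (left) and for all 64531 paired regions (right); regions of 1000 bases or more, 6 widened ones at 1 h and 1 at 0 h, lie beyond the axis. The widened regions have a single peak at 0 h, at 300 to under 350 bases, and a pair of peaks at 1 h, at 250 to under 300 bases, where the rule's minimum lies, and at 600 to under 650 bases.

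Set against a width of 500 bases, a boundary chosen after the widths were seen, 177 of the 294 stood above it at 1 h and below it at 0 h. Of these, 174 had the gain on 1 side (98.3%, exact interval 95.1% to 99.6%). All 11 regions that were at least 500 bases wide at both times also gained on 1 side. The 106 that stayed under 500 bases at both times were divided, with 50 gaining on 1 side (47.2%, interval 37.4% to 57.1%) and 56 on both. The narrowed regions were divided at the same boundary. Of the 1715 that were at least 500 bases wide at 0 h and under 500 at 1 h, 1624 lost at least 80% of the bases on 1 side (94.7%, interval 93.5% to 95.7%), against 627 of the 3179 that were under 500 bases at both times (19.7%, interval 18.4% to 21.1%). Neighbouring regions are not replicates, so no test was made between these shares.

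Gaps of 50 to under 350 bases between regions were fewer in both lists than gaps of 400 to under 700 bases. The class of gaps under 50 bases spans fewer bases than these, so its counts do not compare directly. Within the 1 h list 285 gaps between neighbouring regions were under 50 bases, 220 were of 50 to under 350 bases and 3059 of 400 to under 700 bases; within the 0 h list these numbers were 607, 455 and 5821. No 0 h region, not even one with a centre in a single column, lay in the bases gained by a widened region, as the rule requires. Beyond the gained edge, the next 0 h region was a median of 6650 bases from the 0 h edge in regions widened on 1 side, and 7120 bases away on the other side. It was within 1 kb of the 0 h edge in 24 of the 235 on the gained side and in 20 on the other.

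The highest ratio belonged to a region that was among the narrowest at 0 h. On chromosome 9 the region from 60953690 to 60953940 at 1 h was 250 bases wide, with centres at 60953820 in c1 and 60953790 in c2. At 0 h it ran from 60953800 to 60953840, 40 bases, with centres at 60953805 and 60953810. Both edges moved outward, by 110 and 100 bases, for a ratio of 6.25. Similar cases lay on chromosome 3 (114731010 to 114731280), with 270 bases at 1 h against 60 at 0 h, and on chromosome 2 (156211240 to 156211510), with 270 bases at 1 h against 70 at 0 h. Their 1 h widths are close to the minimum of the rule, and their high ratios come with gains of 200 to 210 bases.

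The remaining high ratios belonged to regions that gained on 1 side. On chromosome 10 the region measured 650 bases at 1 h (118620810 to 118621460) against 140 bases at 0 h (118620840 to 118620980), a ratio of 4.64. Its 1 h centre in c1, at 118621360, lay in the gained stretch, 500 bases from the 0 h centre of c1, while that in c2 stayed at 118620870. On chromosome 11 a region of 780 bases at 1 h (100923250 to 100924030) against 170 bases at 0 h (100923290 to 100923460) gained 570 bases to the right, with both 1 h centres, at 100923350 and 100923360, inside the 0 h span. Also on chromosome 11, a region of 830 bases at 1 h (118112290 to 118113120) against 210 bases at 0 h (118112330 to 118112540) gained 580 bases to the right. There c1 stayed at 118112430 and c2 lay at 118112980 at 1 h, against 118112420 at 0 h. The 1 h centre thus lay in the gained bases in c1 only, in neither column and in c2 only at these 3 regions.

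The largest gain in bases was on chromosome 9, where the region measured 1020 bases at 1 h (95412650 to 95413670) against 280 bases at 0 h (95413400 to 95413680). Its left edge moved outward by 750 bases and its right edge inward by 10, with 1 h centres at 95413510 and 95413500 and 0 h centres at 95413530 and 95413480. On chromosome 19 the region gained 690 bases, with 960 bases at 1 h (6277210 to 6278170) and 270 at 0 h (6277290 to 6277560). Both regions kept their centres within 90 bases of the 0 h place in either column.

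Other large gains also left the centres in place. On chromosome 6 the region from 117806300 to 117807050 at 1 h, 750 bases, kept its right edge exactly and both 1 h centres at 117806970; at 0 h it ran from 117806860 to 117807050, 190 bases. On chromosome 18 the region from 30299510 to 30300780 at 1 h, 1270 bases, kept its left edge exactly, with 700 bases at 0 h. On chromosome 2 all 4 centres of the region from 168055220 to 168056290 (1070 bases at 1 h, 530 at 0 h) stood at 168056080, and the region from 59721020 to 59721830 had 810 bases at 1 h against 290 at 0 h. Regions on chromosome 15 (76180730 to 76181540, 810 bases at 1 h against 280 at 0 h), chromosome 7 (36538330 to 36539130, 800 bases at 1 h and 290 at 0 h), chromosome 1 (133984560 to 133985160, 600 bases at 1 h and 160 at 0 h) and chromosome 5 (73208760 to 73209530, 770 bases at 1 h and 300 at 0 h) completed those named for ratio, for gain or, in the case of chromosome 5, for a gain at 1 edge only. Each of these extended by at least 420 bases at one edge and by at most 20 at the other.

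In most of the set the centres stayed close to where they had been. The position of the centres was not used to choose the regions, although a wider region leaves more room for them. In c1 and in c2 the 1 h centre lay a median of 10 bases from the 0 h centre in the column of the same name, with an upper quartile of 20 bases; the columns name no library, so this pairs names only. All 4 centres lay within 50 bases of one another in 243 of the 294 regions (82.7%, exact interval 77.8% to 86.8%). This held for 90.2% of the pairs not widened (interval 89.9% to 90.5%) and for 83.4% of the narrowed regions (interval 82.4% to 84.5%). In regions widened on 1 side, the 1 h centre was a median of 480 bases from the gained edge in c1 and 470 in c2, and 150 bases from the other edge in both columns.

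Centres in the gained stretch were the exception. The 1 h centre lay outside the 0 h region in 8 of the 294 regions for c1 (2.72%) and in 11 for c2 (3.74%). Among the 43285 pairs not widened it did so in 5 for c1 and 8 for c2. The background over all 43579 pairs, which include the widened regions, was 0.0298% and 0.0436%. The widened cases came from 16 regions, 5 with c1 alone outside, 8 with c2 alone and 3 with both. Bases gained at 1 h are what the rule selects, so the higher share follows from it to an extent that was not measured. The 3 with both columns outside were on chromosome 17 (83947730 to 83948200 at 1 h), chromosome 4 (86695120 to 86695500) and chromosome 12 (72037960 to 72038240), and were named after their values were seen. On chromosome 17 the 1 h centres lay at 83948110 and 83948095, against 83947740 and 83947755 at 0 h. On chromosome 4 both 1 h centres lay at 86695190 and both 0 h centres at 86695450. On chromosome 12 the 1 h centres both lay at 72038070, against 72038150 and 72038190 at 0 h. Each of the 3 gained bases at 1 edge only, so a 1 h centre outside the 0 h region had to lie on that side.

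**Figure D5:**
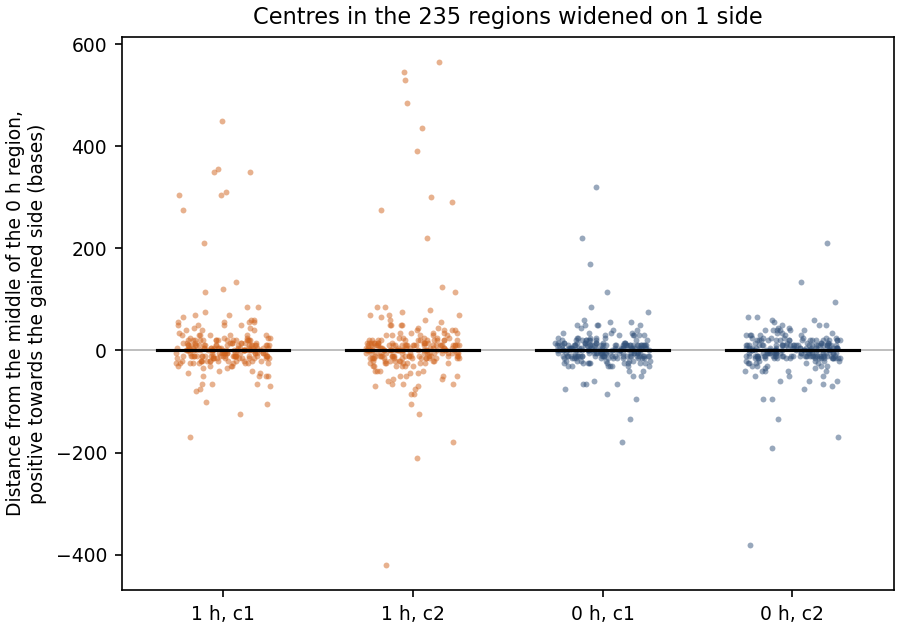
Distance of each column's centre from the middle of the 0 h region, in bases and positive towards the gained side, in the 235 regions widened on 1 side; each point is a region, points are spread sideways for legibility and bars are medians. All 4 columns have medians at the middle, and the 1 h columns have a scatter of points far out on the gained side, of which 8 in c1 and 10 in c2 lie outside the 0 h region.

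The distance of the centres from the middle of the 0 h region had a median of 15 bases in both 1 h columns, against 10 and 15 bases in the 0 h columns, so the columns of the 2 times overlapped. The mean over regions was 32.5 and 39.4 bases in the 1 h columns, against 21.8 and 22.9 bases in the 0 h columns, a difference of 13.6 bases between the means of the columns. These distances are a description: the rule used the edges that set the middle, and it left a 1 h centre more room than a 0 h centre. Among the pairs not widened the means were 38.1 and 40.5 bases at 1 h, against 36.8 and 39.5 bases at 0 h, and the columns overlapped.

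In a few regions the columns placed their centres apart. The centres of c1 and c2 lay over 100 bases apart in 16 of the 294 regions at 1 h (5.44%, exact interval 3.14% to 8.69%) and in 5 at 0 h (1.70%, interval 0.554% to 3.92%). Among the pairs not widened this held for 1.95% at 1 h and 1.95% at 0 h. Among the narrowed regions it held for 3.50% at 0 h, when they were wider (174 of 4978), and for 0.904% at 1 h (45 of 4978). The higher share at the wider time was thus not particular to the widened regions, and a wider region leaves more room between centres. The median distance between the columns was 10 bases at both times in the widened regions and in the others.

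The share of pairs that entered the set is given by 0 h width as a description, since that width is the divisor of the rule's ratio. Of the 43579 pairs, 8 were at most 100 bases wide at 0 h and 24 were over 100 and at most 150 bases, and all of them entered it, as the minimum of 250 bases at 1 h requires. The share was 31.7% (44 of 139 pairs) at over 150 to 200 bases, 2.83% (43 of 1521) at over 200 to 250, 0.765% (65 of 8497) at over 250 to 300 and 0.356% (87 of 24404) at over 300 to 400. It was 0.383% (18 of 4699) at over 400 to 600 bases and 0.117% (5 of 4287) above that. With pairs of any 1 h width counted, the classes up to 100, 150, 200 and 250 bases held 257, 853, 3212 and 9090 pairs. Of these, 8, 24, 44 and 43 were widened. The minimum at 1 h left out most pairs of these classes, so the fall of the share with 0 h width is no separate finding. Gains on 1 side made up 1 of the 8 narrowest, 40 of the 43 at over 200 to 250 bases and 86 of the 87 at over 300 to 400.

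Widened regions were scattered over the genome. They were found on chromosomes 1 to 19 and on 20, which presumably stands for X in the lists' numbering, and made up 0.672% ± 0.205 of the pairs of a chromosome (mean ± SD over 19 chromosomes). The highest share was on chromosome 17, with 20 of 1734 pairs (1.15%), and the lowest of the 19 on chromosome 14, with 6 of 1842 (0.326%). Chromosomes 1 and 2 held the most, 27 each, and chromosome 20 held 4 of 888 (0.450%). On the same 19 chromosomes, narrowed regions made up 7.86% of the pairs of chromosome 16 at the lowest and 10.2% of those of chromosome 17 at the highest. These shares rest on few regions per chromosome, and no chromosome was tested.

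The regions around the widened ones had median width ratios mostly below 1. Another pair with centres in both columns lay within 10 kb, counted from start to start, for 163 of the 294 regions (55.4%, exact interval 49.6% to 61.2%), against 51.0% of the pairs not widened. For each region the median width ratio of these neighbours was taken. Over the widened regions these medians had a median of 0.945 (quartiles 0.866 and 1.00), against 0.926 (quartiles 0.818 and 0.991) over the pairs not widened. A narrowed region lay within 10 kb of 21 widened regions (7.14%, interval 4.48% to 10.7%), against 5.72% of the pairs not widened. Only 2 widened regions had another within that distance. The nearest region of the same list was a median of 4745 bases away at 1 h and 3365 bases at 0 h for the widened regions, against 5190 and 3710 bases for the others.

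The 2 that lay together were on chromosome 17 and were named after their values were seen. The left one measured 700 bases at 1 h (8734550 to 8735250) against 360 bases at 0 h (8734880 to 8735240), with its gain on the left. The right one measured 330 bases at 1 h (8735680 to 8736010) against 170 bases at 0 h (8735790 to 8735960), with 110 bases gained on the left and 50 on the right. The gap between them was 430 bases at 1 h against 550 bases at 0 h. Their centres did not move by more than 10 bases in either column.

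The WT list, which the rule did not use, held 43 regions, of which 36 met any region of the 1 h list. It met 3 of the 294 widened regions (1.02%, exact interval 0.211% to 2.95%), against 6 of the 43285 pairs not widened (0.0139%, interval 0.00509% to 0.0302%). Among the narrowed regions it met 1 of 4978 (0.0201%, interval 0.000509% to 0.112%). The background over all 43579 pairs was 0.0207%, and over all 122135 regions of the 1 h list it was 0.0295%. The share for the widened regions rests on 3 regions that were not typical of the set. Their gains were 120 to 140 bases, below the lower quartile of 170 bases for all widened regions. Their ratios, 1.55 to 1.67, lay near the threshold. All 3 kept the left edge to within 10 bases and gained on the right. On chromosome 6 the region from 10136250 to 10136600 spanned 350 bases at 1 h, and it ended at 10136460 at 0 h with a width of 210 bases, while the WT region ended at 10136600. On chromosome 1 the region from 12634720 to 12635060 spanned 340 bases at 1 h, and it ended at 12634930 at 0 h with a width of 210 bases, while the WT region ended at 12635070. On chromosome 6 again, the region from 132413590 to 132413930 spanned 340 bases at 1 h, and it ended at 132413820 at 0 h with a width of 220 bases, while the WT region ended at 132413860. The WT extent thus matched that at 1 h to within 10 bases at both edges in the first and second of these. In the third its right edge lay between those of 1 h and 0 h. The WT region of the second, on chromosome 1, had a centre in c1 only. That of the third had its centres at 132413770 in c1 and 132413625 in c2.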

How the data were processed

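ChIP-seq region lists of 3 groups were used, each deposited once for its 2 libraries. Per the submitters' processing notes, reads were handled with Bowtie and the build was mm9. No source used here names a peak caller, a threshold or a way of combining replicates. The deposited values are positions in bases: a start, an end and, per the file headers, columns c1 and c2, which hold a position inside the region or -1 and were read as the centre in each replicate. No source used here says whether positions count from 0 or 1. The list of genes to be looked up could not be used, since the annotation at hand is of another build.

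Regions were paired between lists when they shared at least 1 base. The two-sided exact permutation test chosen for centre distances compares 2 columns with 2, cannot give a p below 0.33 and rests on edges the rule used, so it is void here and no p is given. Named regions are the 10 of highest ratio, the 10 of largest gain, those meeting the WT list, 3 on either side of the ratio threshold, and the 5 of largest gain at 1 edge with none at the other, with ties in order of position. The regions, lists and tests were chosen with earlier results of these data known. Pairing and side calls were tested on a copy of the 0 h list in which the edges of isolated regions were moved. All other regions were left unchanged, so this checked the code only and not the pairing in the real lists. Computations used Python 3.11.15, numpy 2.4.6, pandas 2.3.3 and scipy 1.17.1. The other samples of the series were not analysed here.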

Additional observations from a re-analysis of the deposited data

How the results depend on the processing

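No paired analysis was possible because neither column of any list is tied to a numbered library. The number of widened regions was 640 when the wider region had to measure at least 125% of the other, 125 when it had to measure 200% and 613 with no requirement on c1 and c2, and the number of narrowed regions under the same changes was 10749, 2211 and 9130; with a minimum of 400 bases, narrowed regions numbered 2163. With a minimum of 200 or 400 bases, overlap of at least 50%, 1 region met in both directions or ratios taken relative to the median of all pairs (0.931), widened regions numbered 217 to 411. Each column ignored in turn gave 299 to 356 widened and 4985 to 7689 narrowed regions, with the highest number of narrowed regions when c2 of 1 h was ignored. Narrowed regions outnumbered widened ones under all 12 of these alternatives. The share with the gain on 1 side was 75.9% when 90% of the gain was required there and 77.2% to 80.3% with each column ignored, and the share meeting WT was 0.926% to 1.12%. Boundaries of 450 or 550 bases gave 187 and 157 regions that crossed. Moving the boundary, and ignoring columns for these 2 shares, were chosen after seeing the data. The difference in median centre distance was 0 bases from the middle of the 1 h region, and 0 to 5 bases with each column left out, 0 without c1 of 0 h. Distances to transcription starts and motif shares were not run, as no mm9 annotation or genome was used. With depth unknown, the lists allow no detection limit.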

Other observations

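The list of 1 h gives its 19 regions on chromosome 21, presumably Y, at positions that end in 1 or 6, whereas all other positions of both lists end in 0 or 5. None of the widened regions lay on that chromosome, where no pair was eligible.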
